A study of Mus musculus with 22 samples.

Results

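Polyamine synthesis, breakdown and its feedback control were followed through 10 genes in NIH3T3 cells, a fibroblast line from mouse embryos. The genes were taken by name and not by any measured value, though with earlier results of these data known. They were Odc1, Amd1, Srm and Sms for synthesis, Oaz1, Oaz2 and Azin1 for the antizyme system, and Sat1, Smox and Paox for breakdown. All 10 were among the 10516 genes of the expression tables. Cells carried a lentiviral shRNA against Denr (shRNA1 or shRNA2, 3 lysates each) or a control shRNA (scramble, 3 lysates, or Gfp, 2 lysates), were selected for the vector, and received cycloheximide at 100 µg/ml for 2 min before lysis. Knockdown (6 lysates) and control (5 lysates) cells therefore shared the viral vector, its selection and the drug, and differed in the shRNA. Each lysate gave a library of ribosome-protected fragments (RPF-seq) and a total RNA library (RNA-seq), 22 in all, and 1 plate was grown per replicate. Whether plates came from separate transductions was not stated, so that p-values measure the spread between these plates.

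Putrescine, spermidine and spermine are small cations that bind RNA and that dividing fibroblasts make in quantity. Ornithine decarboxylase (Odc1) makes putrescine from ornithine, S-adenosylmethionine decarboxylase (Amd1) supplies the aminopropyl donor, and spermidine synthase (Srm) and spermine synthase (Sms) use it in turn. Antizymes (Oaz1, Oaz2) bind ornithine decarboxylase and send it to the proteasome, and antizyme inhibitor (Azin1), an inactive relative of the decarboxylase, takes antizyme away from it. Spermidine/spermine N1-acetyltransferase (Sat1) marks polyamines for export or for oxidation by polyamine oxidase (Paox), while spermine oxidase (Smox) acts on spermine itself. Much of the control in this pathway is translational. Antizyme mRNAs need a shift of the ribosome into another reading frame, which polyamines favour, and several of the other mRNAs have upstream open reading frames (uORFs), short reading frames in the 5′ UTR. DENR is a factor that helps ribosomes resume scanning and start again after such a uORF.

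The uORFs of 30 nt or less that begin with AUG are printed because reinitiation after a uORF is the step in which DENR acts. Start and stop codons are in capitals, the sequence is the sense strand, and positions are those of GRCm38 with the GENCODE vM21 annotation. The printed Odc1 uORF lies in exon 1 at chr12:17544921-17544947 on the plus strand. Those of Azin1 lie on the minus strand in exon 2 at chr15:38514482-38514505 and in exon 4 at chr15:38501507-38501536, the latter ending 1 nt before the CDS. The Amd1 uORF, known for stalling ribosomes when polyamines are plentiful, lies in exon 1 at chr10:40302155-40302175 on the minus strand, 11 nt from the cap. The Sat1 uORF lies in exon 1 at chrX:155216271-155216285 on the minus strand.
Odc1 uORF 1: ATGacgacgtgctcggcgtataagTAG
Azin1 uORF 2: ATGatagggggttccatctccTAA
Azin1 uORF 6: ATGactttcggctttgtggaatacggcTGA
Amd1 uORF: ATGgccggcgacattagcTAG
Sat1 uORF 1: ATGgtgccagccTGA

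On the transcript with the longest CDS, Odc1 had 2 AUG uORFs of any length, Azin1 6, Amd1 1, Sms 4 and Sat1 2. The Odc1 uORF that is not printed was 33 nt long and ended 115 nt before the CDS. In Sms and Sat1, 1 uORF ran past the start codon of the CDS, which in Sat1 was a reading frame of 135 nt. Oaz1, Oaz2, Srm, Smox and Paox had none. An AUG uORF was therefore annotated in 5 of the 10 genes, against 49.8% of the 10205 measured genes whose transcript has a 5′ UTR, which is a description of the annotation and not of translation. Start codons other than AUG, such as that of the conserved uORF known from Azin1, were not searched. Nor were other transcripts searched for further uORFs. The 5′ UTR behind the expression values was 299 nt for Smox and 104 nt for Oaz1, against 120 and 74 nt on the transcripts searched.

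The antizyme windows show where the frame changes. They are 30 nt long, on the plus strand, with the last codon of the initial frame and the stop codon after it in capitals. The Oaz1 window lies at chr10:80828280-80828309 and the Oaz2 window at chr9:65686257-65686286.
Oaz1 shift site: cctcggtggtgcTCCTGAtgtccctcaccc
Oaz2 shift site: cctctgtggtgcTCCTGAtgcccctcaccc

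Both genes have the same TCC codon before the same TGA stop. The initial frame of Oaz1 ends after 68 codons of an annotated 227, and that of Oaz2 after 32 of 189. CDS values of the antizymes thus sum footprints before and after the shift, and they cannot say how many ribosomes changed frame.

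Denr itself was measured before any of these genes. Its CDS RNA was 165 to 190 RPKM (reads per kilobase and normalised library size, as deposited) in the controls, and it was lower by 77.5% ± 2.95 (SD, n = 3) with shRNA1 and by 90.1% ± 1.5 (n = 3) with shRNA2. Depth on the CDS and 5′ UTR of the measured genes was 10927303 to 21649878 reads for RPF-seq and 8514080 to 20109699 for RNA-seq. All 10 fibroblast markers looked for were measured, among them Vim (3834 to 4432 RPKM) and Col1a2 (523 to 769 RPKM). Of 12 markers of other cell types 3 were measured, at 2.74 to 4.05 RPKM for Cdh1, 0.544 to 1.1 for Cdh5 and 0.823 to 1.55 for Des. RNA changes are given per normalised library, so that a difference in cell number or in RNA per cell that all genes share would not show.

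In control cells the RNA levels of the pathway covered a wide range. Oaz1 was by far the highest, at 1927 ± 231 RPKM of CDS RNA (SD, n = 5), and only 27 of all genes were higher. Azin1 (260 ± 29.8), Odc1 (249 ± 33.8) and Sat1 (238 ± 19.4) followed, and their ranges over the 5 lysates overlapped. Sms (133 ± 10.5) and Srm (128 ± 7.49) could likewise not be ordered, and Oaz2 came next at 22.1 ± 3.3. The lowest were Amd1 (13 ± 2.48), Smox (9.72 ± 1.81) and Paox (7.65 ± 0.909), each overlapping its neighbour. These 3 and Oaz2 were below the median of all genes, which was 28.2 RPKM. The plot of CDS RNA by lysate shows these levels.

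**Figure D1:**
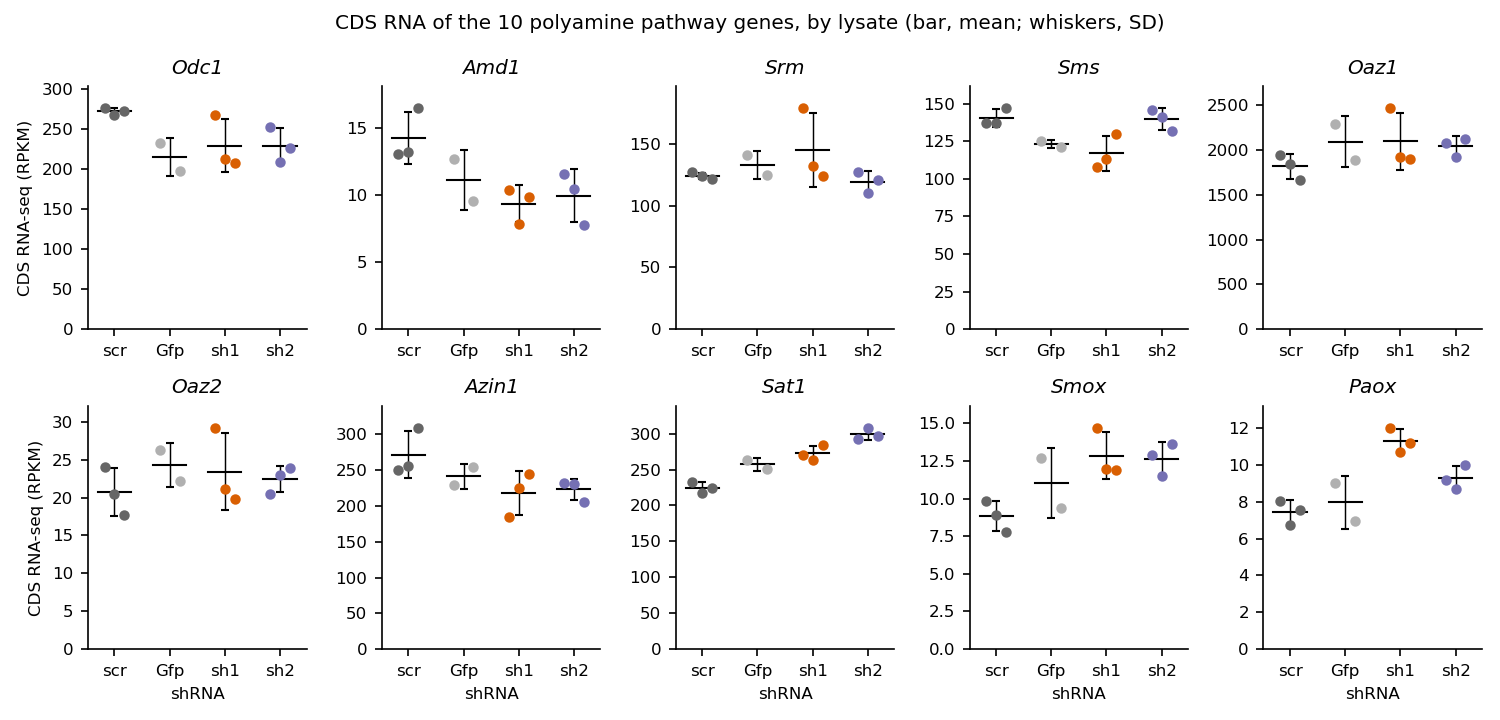
CDS RNA-seq level (RPKM, linear axis from 0) of the 10 genes in each lysate with scramble (scr), Gfp, Denr shRNA1 (sh1) or Denr shRNA2 (sh2). Dots are lysates, bars means and whiskers SD. For Sat1 and Paox, 5 of the 6 knockdown lysates were above every control.

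Reads on several of these coding sequences could have come from other genes. Of all 30-nt stretches of the CDS, a length near that of a footprint, the share also found in annotated transcripts of other genes was 100% for Amd1 and Sms, 91% for Oaz1, 87.5% for Paox, 83% for Odc1, 63.6% for Oaz2, 35.4% for Sat1 and 18.1% for Srm, and it was 0 for Azin1 and Smox. At 60 nt, the longest RNA read kept, it was still 100% for Amd1 and Sms, 85.1% for Paox, 80.9% for Oaz1 and 60.4% for Odc1. It fell to 30.5% for Oaz2, 3.16% for Sat1 and 1.3% for Srm. The 5′ UTRs shared no 30-nt stretch with other genes, apart from Amd1, of whose 5′ UTR 85.6% was shared with its close copy Amd2. How reads with several matches were treated is not given in the sources used here, and levels and translation efficiencies of these genes are uncertain to that degree.

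Translation efficiency (TE, CDS footprint RPKM over CDS RNA RPKM) set Odc1 apart from the rest of the pathway. Its log2 TE in control cells was -3.29 ± 0.067 (SD, n = 5), or 0.102 footprint RPKM per RNA RPKM, and 65 of the 10516 genes were lower. The ranges of Odc1 and of the next gene, Oaz1, did not overlap. The cause was not tested; 83% of the 30-nt stretches of the Odc1 CDS occur elsewhere.

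The other genes spread around the median of all genes, -0.076. Srm (0.69 ± 0.12), Oaz2 (0.36 ± 0.48) and Paox (0.16 ± 0.26) were above it, each overlapping its neighbour in this order. Azin1 (-0.66 ± 0.14), Sat1 (-0.77 ± 0.13), Sms (-0.80 ± 0.08), Smox (-0.91 ± 0.23), Amd1 (-1.22 ± 0.57) and Oaz1 (-1.23 ± 0.47) were below it, each overlapping its neighbour. The TE of the antizymes and of Amd1 varied most between control lysates.

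The 5′ UTR held more footprints per length than the CDS in 4 of the 8 genes with enough 5′ UTR reads (20 or more footprints in 9 or more of the 11 lysates). Smox and Paox were left out, with 3 to 22 and 0 to 1 such reads per library. In control cells log2 of 5′ UTR over CDS footprints was 1.95 ± 0.62 (SD, n = 5) for Odc1, 0.95 ± 0.93 for Amd1, 0.83 ± 0.43 for Sat1 and 0.15 ± 0.16 for Azin1. These 4 genes all have AUG uORFs, as do 49.8% of measured genes whose transcript has a 5′ UTR. Odc1 stood at 3.86 times more per length on the 5′ UTR, and 153 of 5175 genes with such coverage were higher. Azin1, the lowest of these 4, had 1266 of the 5175 genes above it. The median gene was at -0.89. Below 0 were Oaz2 (-1.13 ± 0.67), Sms (-2.37 ± 0.88), Srm (-2.57 ± 0.57) and Oaz1 (-3.42 ± 0.40), among which Sms has uORFs as well.

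RNA-seq gives the same ratio without ribosomes. There, log2 of 5′ UTR over CDS was 0.52 ± 0.11 for Odc1, -0.69 ± 0.17 for Sat1, -0.52 ± 0.11 for Azin1 and 1.21 ± 0.63 for Amd1 (SD, n = 5). For Odc1, Sat1 and Azin1 every control lysate had a higher ratio in footprints than any had in RNA, whereas the ranges of Amd1 overlapped. Reads of different lengths may match other genes to different degrees. For the Odc1 CDS 83% of 30-nt and 60.4% of 60-nt stretches were shared, and for Sat1 35.4% and 3.16%. The Azin1 CDS and the 5′ UTRs of these 3 genes shared 0. What shared stretches add to the ratios was not tested. The 5′ UTR length behind the RPKM was 410 nt for Odc1, 816 nt for Azin1, 104 nt for Oaz1 and 281 nt for Sat1. On the annotated transcripts used here it was 489, 747, 74 and 177 nt. The deposited values give only a total for the 5′ UTR of each gene and library, so that footprints could not be assigned to uORFs in any gene.

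**Figure D2:**
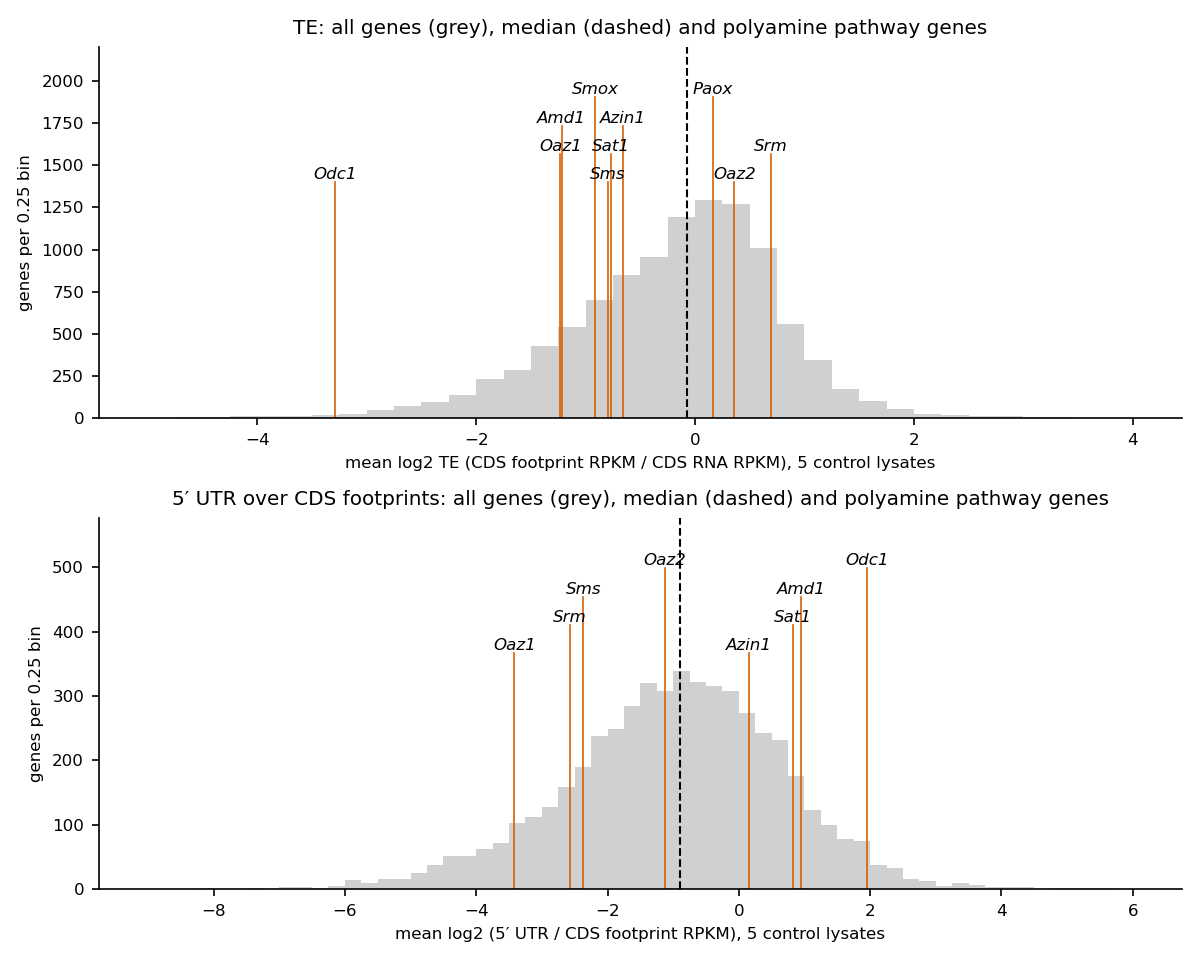
Distribution over all genes (grey bars, genes per 0.25 bin) of the mean log2 TE and of the mean log2 ratio of 5′ UTR to CDS footprints in the 5 control lysates, with the median (dashed line) and the polyamine pathway genes (orange lines). Odc1 lies at -3.29 in the upper panel and at 1.95 in the lower one.

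Sat1 and Paox, enzymes of polyamine breakdown, had more RNA after Denr knockdown. They passed an FDR of 0.1 (limma on log2(RPKM + 0.1), adjusted over all genes), which made 2 of 10 genes called against 3.55% of all 10516 genes (2.68% higher). The other 8 did not pass. The median change of the 10 genes was 0.043, and that of all genes was 0.027 (log2 knockdown over control).

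Sat1 RNA stood at 270, 264 and 284 RPKM with shRNA1 and at 292, 308 and 297 with shRNA2. Control lysates had 233, 217 and 224 with scramble and 264 and 251 with Gfp shRNA. Of the 6 knockdown lysates 5 were above every control, and shRNA1 replicate 2 was level with Gfp replicate 1. The change was 0.27 ± 0.071 (log2, SE), 20.4% more RNA, with an adjusted p of 0.0767 in limma. The call was lost without shRNA1 replicate 3 or any 1 of the shRNA2 or scramble lysates (adjusted p = 0.112 to 0.225 in limma), with libraries centred on their median (0.117) and with shRNA1 alone (0.372).

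Paox RNA was 12, 10.7 and 11.2 RPKM with shRNA1, 9.17, 8.69 and 10 with shRNA2, 8.03, 6.74 and 7.53 with scramble and 8.99 and 6.94 with Gfp shRNA. Again 5 of 6 knockdown lysates were above every control, and the change was 0.42 ± 0.11 (log2, SE), with an adjusted p of 0.0632 in limma. Without shRNA1 replicates 2 or 3, shRNA2 replicate 3, any 1 scramble lysate or Gfp replicate 2 the adjusted p was 0.109 to 0.194, and it was 0.226 for shRNA2 alone. Of the CDS, 87.5% of 30-nt stretches occur in 1 other gene.

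Smox RNA had a similar estimate and just missed the threshold. Its RNA level was 14.7, 12 and 11.9 RPKM with shRNA1, 12.9, 11.5 and 13.6 with shRNA2, 9.85, 8.88 and 7.81 with scramble and 12.7 and 9.41 with Gfp shRNA. The groups overlapped, since Gfp replicate 1 lay among the knockdown values. The change was 0.40 ± 0.11 (log2, SE), adjusted p = 0.101 in limma. Settings under which Smox RNA passed included Gfp replicate 1 left out (0.50, adjusted p = 0.0211) and scramble alone as control (0.52, adjusted p = 0.0245).

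No enzyme of synthesis passed for RNA. Amd1 had the largest estimate, -0.42 ± 0.14 (log2, SE; adjusted p = 0.149 in limma), with 7.78 to 11.6 RPKM in knockdown and 9.56 to 16.5 in control lysates. Settings under which Amd1 RNA passed included Gfp replicate 2 left out (-0.53, adjusted p = 0.0661) and scramble alone as control (-0.56, adjusted p = 0.0496). Odc1 was at -0.12 ± 0.10, Srm at 0.033 ± 0.10 and Sms at -0.061 ± 0.09, with 95% intervals of -0.33 to 0.10, -0.19 to 0.26 and -0.25 to 0.13. In the antizyme system Azin1 was at -0.24 ± 0.09 (adjusted p = 0.209), Oaz1 at 0.10 ± 0.10 and Oaz2 at 0.053 ± 0.12.

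Ribosome footprints on the CDS showed all 3 enzymes of breakdown to be higher, and Amd1 to be lower. These were 4 of 10 genes called, against 10.0% of all 10516 genes (5.47% higher and 4.55% lower). The median change of the 10 genes was -0.0033 and that of all genes 0.0072. The plot of CDS footprints by lysate shows each gene.

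Sat1 had the largest increase. Its CDS footprints were 145, 167 and 210 RPKM with shRNA1 and 191, 225 and 243 with shRNA2, against 130, 148 and 130 with scramble and 150 and 138 with Gfp shRNA. Only shRNA1 replicate 1 lay within the control range. The increase was 39.5%, or 0.48 ± 0.11 (log2, SE), with an adjusted p of 0.0301 in limma. It passed with any 1 lysate left out (adjusted p = 0.0103 to 0.0809 in limma) but not for shRNA1 alone (0.31, adjusted p = 0.155).

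Smox was the 1 gene whose groups did not overlap in CDS footprints, a separation that 4.45% of all genes had. Its footprint level was 6.6, 6.01 and 6.21 RPKM with shRNA1 and 6.21, 6.18 and 6.33 with shRNA2. Control lysates had 4.52, 5.25 and 4.69 with scramble and 5.44 and 5.41 with Gfp shRNA, from 92 to 187 reads per library. Spermine oxidase footprints were thus higher by 0.30 ± 0.075 (log2, SE; adjusted p = 0.0366 in limma). Each shRNA alone gave much the same estimate without passing (0.31 and 0.30, adjusted p = 0.128 and 0.12).

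Paox footprints were 11, 9.98 and 10.2 RPKM with shRNA1, 9.95, 10.4 and 11.6 with shRNA2, 7.21, 8.58 and 7.37 with scramble and 10.1 and 9.72 with Gfp shRNA. The groups overlapped because both Gfp lysates lay near the knockdown lysates. The change was 0.30 ± 0.10 (log2, SE; adjusted p = 0.087 in limma), while Gfp lysates were 0.36 above scramble lysates. Leaving out any 1 lysate other than a Gfp one took the adjusted p to 0.111 to 0.202, and each shRNA alone gave 0.241 and 0.18.

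Amd1 footprints went the other way, at 4.16, 3.49 and 4.01 RPKM with shRNA1 and 3.68, 3.91 and 4.01 with shRNA2. Controls had 5.75, 6.17 and 3.54 with scramble and 7.7 and 4.99 with Gfp shRNA. Scramble replicate 3 was as low as the knockdown lysates. The decrease was -0.49 ± 0.15 (log2, SE; adjusted p = 0.0826 in limma) on 40 to 147 reads per library, and every 30-nt stretch of this CDS also occurs in another gene. Leaving out any 1 lysate other than scramble replicate 3 or Gfp replicate 2 ended the call (adjusted p = 0.101 to 0.177), as did voom on recovered reads (-0.47, adjusted p = 0.139), scramble alone as control (-0.36, 0.124) and each shRNA alone (0.219 and 0.193).

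The rest of synthesis and the antizyme system did not pass. Odc1 CDS footprints were 21.2 to 25.2 RPKM in knockdown and 21.8 to 28.3 in control lysates, a change of -0.14 ± 0.077 (log2, SE; adjusted p = 0.286 in limma). Against scramble alone this was -0.25 (adjusted p = 0.0309), since the Gfp lysates, at 23 and 21.8 RPKM, lay among the knockdown ones. Azin1 was at -0.091 ± 0.068, Srm at -0.038 ± 0.065, Sms at 0.036 ± 0.088, Oaz1 at -0.0045 ± 0.13 and Oaz2 at -0.0021 ± 0.12.

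**Figure D3:**
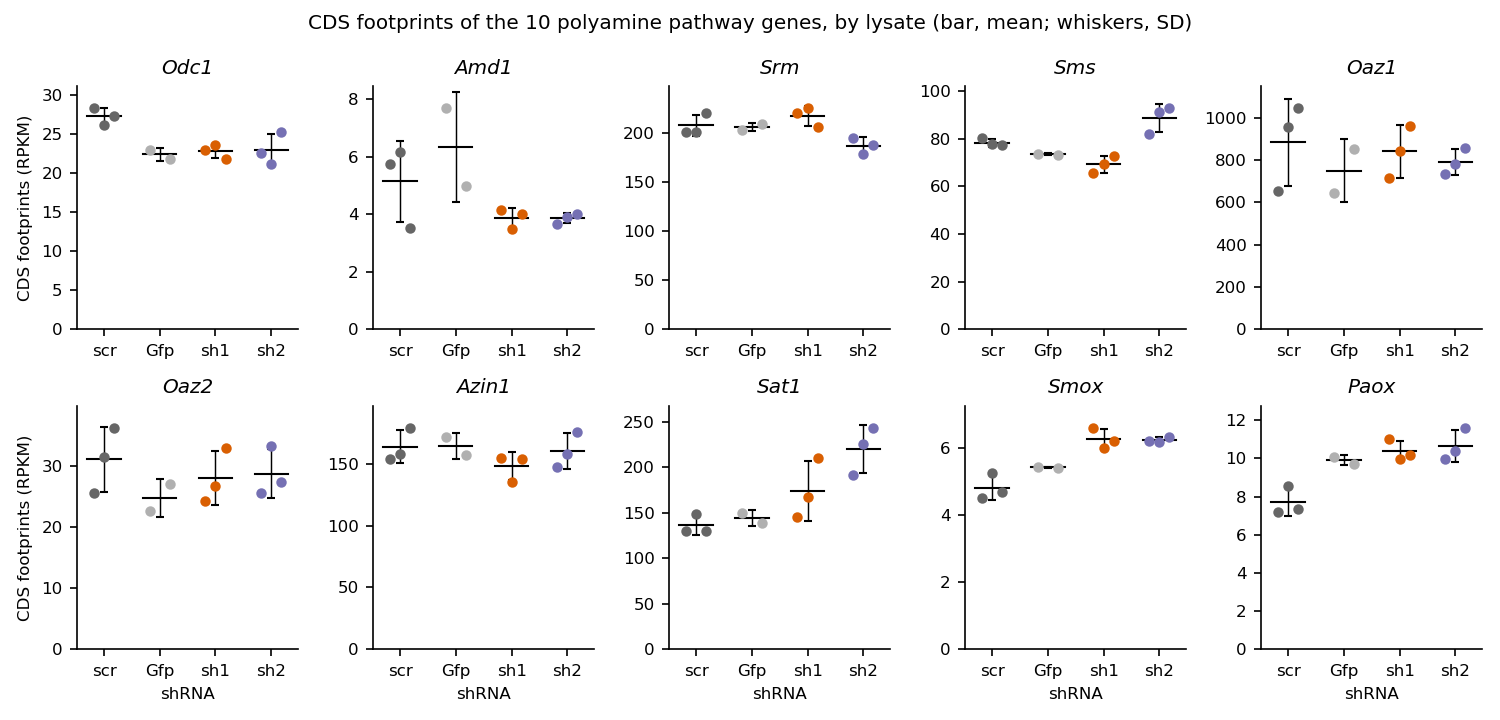
CDS footprint level (RPKM, linear axis from 0) of the 10 genes in each lysate, with groups, dots, bars and whiskers as in the plot of CDS RNA. All 6 knockdown lysates of Smox are above 6, and all 5 control lysates are below 5.5.

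TE of the pathway did not pass in either direction. By limma 0 of the 10 genes were called (0.475% of all 10516 genes were, all of them lower), 0 had an unadjusted p under 0.05 (6.66% of all genes had), and voom on recovered reads also called 0. Sat1 had the largest estimate, with TE higher by 0.21 ± 0.11 (log2, SE; adjusted p = 0.814). Its log2 TE was -0.90, -0.66 and -0.43 with shRNA1 and -0.62, -0.46 and -0.29 with shRNA2, against -0.84, -0.55 and -0.78 with scramble and -0.82 and -0.86 with Gfp shRNA, so that the groups overlapped. Odc1 TE, low in every lysate, was -3.54 to -3.16 in knockdown and -3.34 to -3.18 in control lysates.

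The intervals limit what could be seen. For Odc1 the TE difference was -0.023, with a 95% interval of -0.24 to 0.19, and for Sms, with its 4 uORFs, it was 0.10 (-0.077 to 0.27). Azin1 was at 0.14 (-0.10 to 0.39), Srm at -0.071 (-0.27 to 0.13), Smox at -0.10 (-0.32 to 0.13) and Paox at -0.12 (-0.39 to 0.15). The widest intervals were those of Amd1 (-0.55 to 0.42), Oaz1 (-0.55 to 0.33) and Oaz2 (-0.52 to 0.41), which leave room for decreases as large as 0.5 on the log2 scale. All these intervals come from a fit that does not use the replicate number. Oaz1 TE was lowest in replicate 1 of every group (-1.79, -1.50, -1.57 and -1.83 with shRNA1, shRNA2, scramble and Gfp shRNA). For Oaz2 and Amd1 this did not hold in every group.

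**Figure D4:**
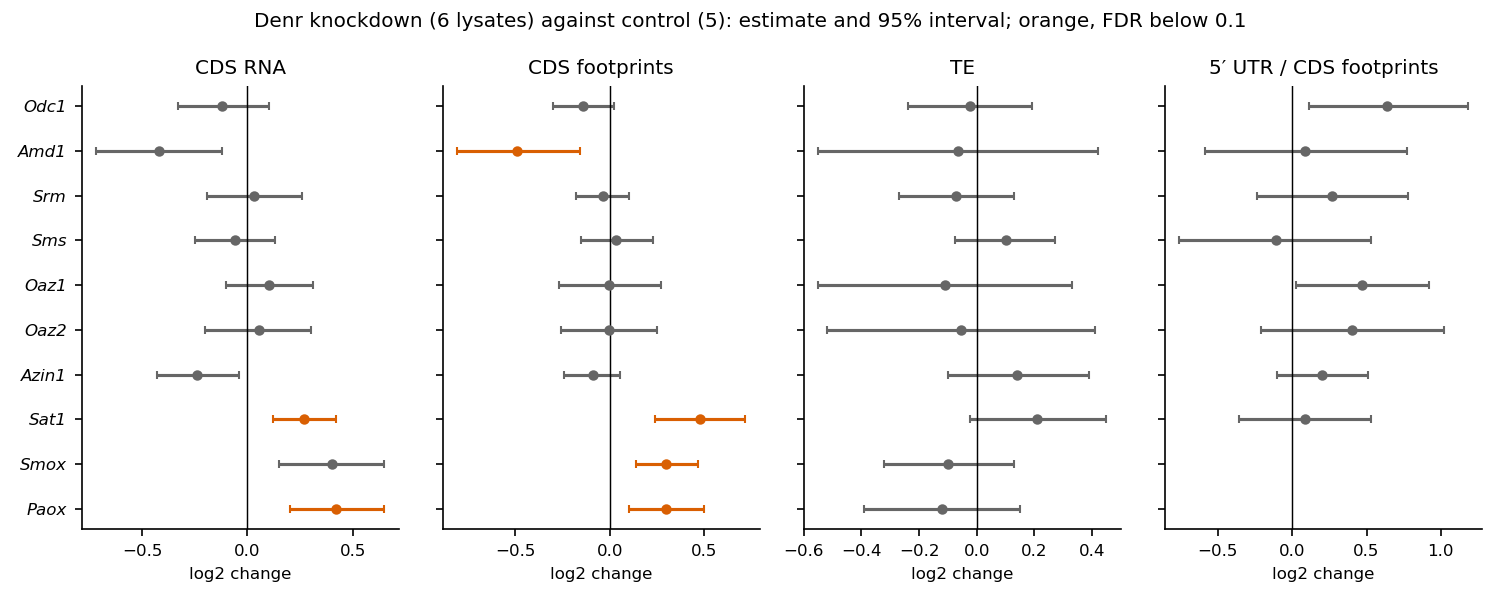
Log2 change of each gene in Denr knockdown (6 lysates) against control (5 lysates) for CDS RNA, CDS footprints, TE and the ratio of 5′ UTR to CDS footprints. Dots are estimates, lines are 95% intervals of limma, and orange marks an FDR below 0.1. Orange marks stand for Sat1 and Paox in RNA, for Amd1, Sat1, Smox and Paox in footprints, and for no gene in the other panels.

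Footprints on the 5′ UTR relative to the CDS moved up across the transcriptome, and the polyamine genes are set against that shift. The median of 5175 covered genes lay between -0.70 and -0.45 in knockdown and between -1.17 and -0.68 in control lysates, and the median change over genes was 0.33 (log2). Of the 8 polyamine genes with coverage, limma called 0, where 18.1% of covered genes (939) were called, and 2 of the 8 had an unadjusted p under 0.05 (33.3% of covered genes had). These 939 calls became 1773 without Gfp replicate 2. They became 38 to 579 without any 1 shRNA1 lysate, shRNA2 replicate 2, scramble replicates 1 or 3 or Gfp replicate 1. After each library was centred on its median 5 calls were left. Centring takes out the shift that the covered genes share, here and below, so it cannot test that shift. Voom was not run for this ratio. The median change of the 8 genes was 0.24, and 7 of the 8 changes were above 0.

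Odc1 was closest to the threshold. Its 5′ UTR footprints were 102, 177 and 106 RPKM with shRNA1, 137, 181 and 147 with shRNA2, 116, 122 and 54.2 with scramble and 82 and 139 with Gfp shRNA. Relative to the CDS, log2 was 2.15 to 3.08 in knockdown and 0.99 to 2.67 in control lysates, and scramble replicate 3 was the lowest. The change was 0.64 ± 0.25 (log2, SE; adjusted p = 0.107 in limma). Settings under which it passed included a pseudocount of 1 (0.63, adjusted p = 0.0984), scramble replicate 2 left out (0.71, adjusted p = 0.0986), Gfp replicate 2 left out (0.82, adjusted p = 0.0417) and scramble alone as control (0.84, adjusted p = 0.0923). With each library centred on its median it was 0.32 (adjusted p = 0.668).

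Oaz1, whose 5′ UTR carried 77 to 214 footprints, was at 0.47 ± 0.21 (log2, SE; adjusted p = 0.133 in limma), and 4 of 6 knockdown lysates were above every control. Settings under which it passed included Gfp replicate 2 left out (0.55, adjusted p = 0.0887), and after centring it was at 0.15. Oaz2 was at 0.40 ± 0.29, Srm at 0.27 ± 0.24, Azin1 at 0.20 ± 0.14, Amd1 at 0.089 ± 0.32, Sat1 at 0.086 ± 0.21 and Sms at -0.11 ± 0.31. Centred on the library medians, Azin1, Amd1, Srm and Sat1 turned to -0.12, -0.23, -0.051 and -0.23. Sms rested on scramble replicate 3, without which it was 0.20.

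Sat1 shows the distinction between both measures. Its 5′ UTR footprints were 316, 414 and 298 RPKM with shRNA1, 397, 451 and 337 with shRNA2, 217, 333 and 151 with scramble and 244 and 341 with Gfp shRNA. They were thus higher on average in knockdown lysates (369 ± 60.6, SD, n = 6) than in controls (257 ± 80.5, n = 5), with overlapping groups, as CDS footprints were. The ratio of both had a change of 0.086, with a 95% interval of -0.36 to 0.53.

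**Figure D5:**
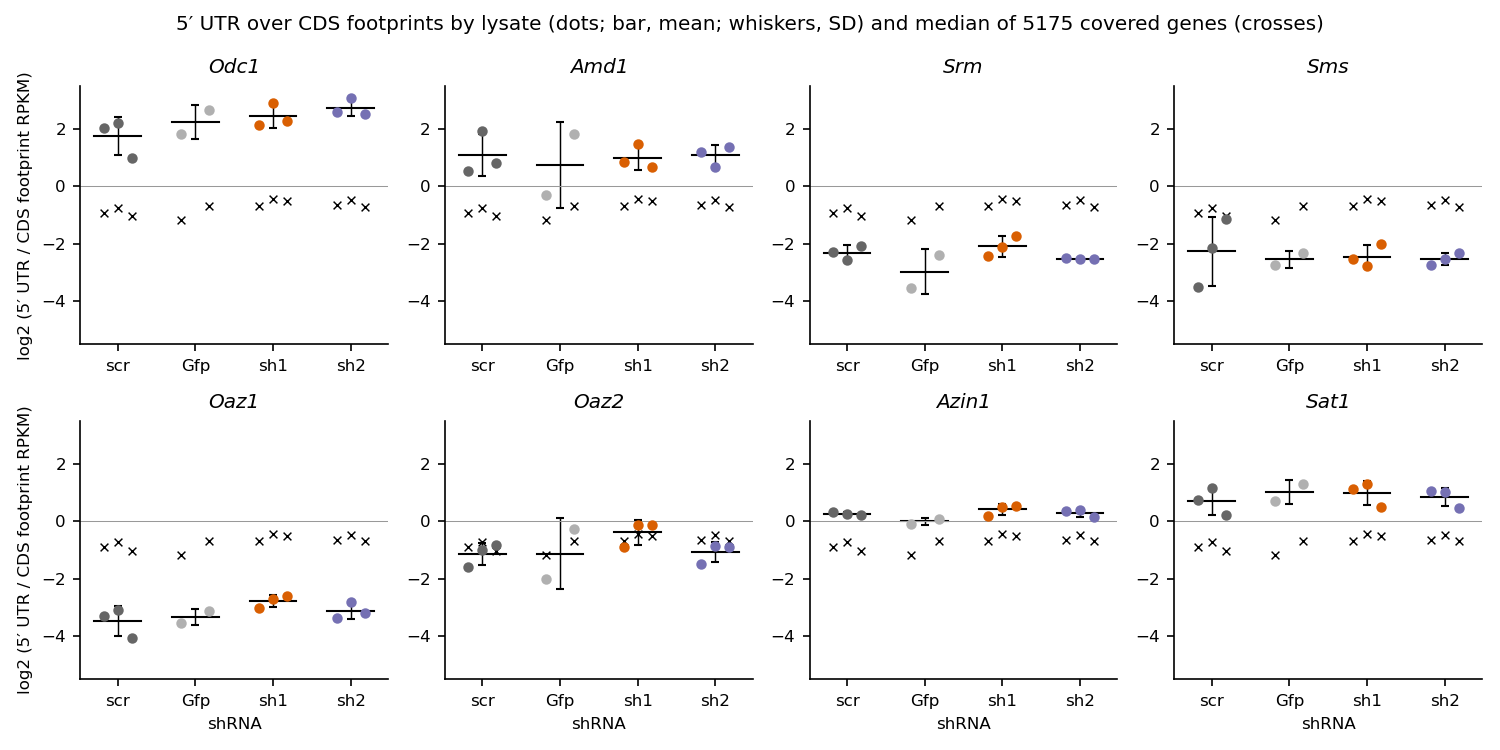
Log2 ratio of 5′ UTR to CDS footprints (RPKM) in each lysate for the 8 genes with 5′ UTR coverage (dots, with bars for means and whiskers for SD), and the median of 5175 covered genes in the same lysates (crosses). Odc1, Amd1, Sat1 and Azin1 lie above the crosses in all lysates, and Oaz1, Srm and Sms below them.

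Of 33 further genes of polyamine metabolism 22 were measured. By limma 1 passed as higher and 1 as lower for RNA (3.55% of all genes passed), 0 and 1 for CDS footprints (10.0%), 0 and 0 for TE (0.475%), and 2 and 0 of 16 with coverage for the 5′ UTR ratio (18.1%). Their median changes were -0.0027, 0.012, 0.0015 and 0.41, against 0.027, 0.0072, -0.012 and 0.33 for all genes tested. For TE, 0 of the 22 genes had an unadjusted p under 0.05 in limma, and voom called 0. Voom called 2 of the 22 for RNA and 3 for footprints, the latter being Mat2a, Atp13a2 (0.44, adjusted p = 0.0911) and Slc7a1 (-0.19, adjusted p = 0.0908). In limma footprints of Atp13a2 (0.42, adjusted p = 0.126) and Slc7a1 (-0.19, adjusted p = 0.101) did not pass. Slc7a1, a transporter of arginine and ornithine, is named here after its values were seen.

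Among the precursor enzymes Mat2a, the catalytic subunit of the methionine adenosyltransferase that makes S-adenosylmethionine, fell. Its RNA was 126, 114 and 113 RPKM with shRNA1, 109, 117 and 109 with shRNA2, 144, 139 and 139 with scramble and 129 and 127 with Gfp shRNA. The change was -0.24 ± 0.063 (log2, SE; adjusted p = 0.0749 in limma) for RNA and -0.19 (adjusted p = 0.0747) for CDS footprints. The RNA call was lost without shRNA1 replicates 2 or 3 or any 1 of the shRNA2 or scramble lysates (adjusted p = 0.118 to 0.214) and for shRNA1 alone (0.332). That of footprints was lost without any 1 shRNA1 or scramble lysate or shRNA2 replicates 1 or 2 (0.108 to 0.17) and for each shRNA alone (0.161 and 0.234). Mat2b, the regulatory subunit, rose in the 5′ UTR ratio by 0.65 (adjusted p = 0.0729). After centring this was 0.33 (adjusted p = 0.548), and the call was also lost without shRNA1 replicates 2 or 3, shRNA2 replicate 2 or Gfp replicate 1 (0.109 to 0.167), for each shRNA alone (0.192 and 0.343), with scramble alone as control (0.111), over 5′ UTR RNA (0.152) and with a 5′ UTR RPKM filter (0.132). Oat (134 RPKM of RNA in controls), which converts ornithine, and Aldh18a1 (38.7 RPKM), which serves proline and ornithine synthesis, did not pass in any measure.

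In methylthioadenosine salvage, which recovers the by-product of spermidine and spermine synthesis, Apip rose in the 5′ UTR ratio by 1.32 (adjusted p = 0.086 in limma). Its 5′ UTR footprints were 20.5 to 35.6 RPKM in knockdown lysates, 10.7 to 26.3 in 4 control lysates and 2.18 in scramble replicate 3. Without that lysate the change was 0.70 (adjusted p = 0.0371), and after centring 1.00 (adjusted p = 0.516). The call was also lost without any 1 shRNA1 lysate, shRNA2 replicate 2 or Gfp replicate 1 (0.12 to 0.179), for each shRNA alone (0.187 and 0.387), over 5′ UTR RNA (0.22) and with the RPKM filter (0.161). Mtap (444 RPKM of RNA in controls) and Adi1 (60.2) did not pass in any measure tested.

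Spermidine also serves to make hypusine on the translation factor eIF5A. Eif5a (968 RPKM of RNA in controls) and Dohh (131), which completes that modification, did not pass, nor did the others of that group. In transport, Atp13a2, a lysosomal polyamine exporter, rose in RNA by 0.38 (adjusted p = 0.0994 in limma), from 6.32 to 9.56 RPKM in controls to 8.88 to 11.7 in knockdown lysates. The call was lost without any 1 of 9 lysates, all but shRNA1 replicate 3 and Gfp replicate 1 (adjusted p up to 0.213), with a mean CDS RPKM of at least 1 as filter (0.102), after centring (0.136) and for each shRNA alone (0.368 and 0.111). Atp13a3 (89.2 RPKM) and Slc3a2 (115 RPKM) did not pass, and neither did Azin2 (15 RPKM) or Sat2 (3.45 RPKM), relatives of Azin1 and Sat1.

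Both Denr shRNAs were compared directly to see whether the genes responded alike. CDS footprints differed for 2 of the 10 genes, against 9.69% of all genes. Sms footprints were 65.5, 69.5 and 72.7 RPKM with shRNA1 and 82, 91.3 and 92.9 with shRNA2, a difference of 0.36 ± 0.066 (log2 shRNA2 over shRNA1, SE; adjusted p = 0.00711 in limma). The 5 control lysates, at 73.2 to 80.2 RPKM, lay between them. Every 30-nt stretch of the Sms CDS also occurs in transcripts of other genes. Srm footprints were 220, 225 and 206 RPKM with shRNA1 and 195, 178 and 187 with shRNA2, a difference of -0.22 ± 0.064 (adjusted p = 0.0699), against 201 to 220 in controls. The Srm call was lost without shRNA1 replicates 1 or 2 or shRNA2 replicates 2 or 3 (adjusted p = 0.165 to 0.248) and after centring (0.103).

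For Sms and Srm the pooled comparison with control therefore averaged estimates of opposite sign, at -0.14 and 0.21 for Sms and at 0.07 and -0.15 for Srm (log2 over control, shRNA1 and shRNA2). Neither gene passed against control for either shRNA alone (adjusted p in limma of 0.107 or more for Sms and 0.212 or more for Srm). For RNA, limma called 0 of the 10 genes between the shRNAs (2.06% of all genes) and voom called 0, while 2 of the 10 had an unadjusted p under 0.05 in limma (13.6% of all genes had). For TE, limma and voom called 0 of all 10516 genes, and an unadjusted p under 0.05 in limma was found for 1 of the 10 genes and for 392 of all genes (3.73%).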

How the data were processed

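The authors deposited, for each gene and library, RPKM values for CDS and 5′ UTR. They trimmed reads with cutadapt, kept 26 to 35 nt (RPF-seq) or 21 to 60 nt (RNA-seq), aligned them with Bowtie2 and TopHat 2.0.11 (GRCm38), counted them on expressed isoforms from Cufflinks 2.2.1 (footprints by A-site, ambiguous reads to the CDS first), removed genes with few reads, and scaled each assay by its upper quartile. Here the whole reads behind each RPKM were recovered (all 231352 CDS and 228800 5′ UTR finite values came out whole, tolerance 0.02 reads) for depth and coverage filters. The length of each gene was the smallest that made its values whole, so this share is not an independent check. For 409 genes no 5′ UTR length was found.

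Groups followed the sample titles. log2(RPKM + 0.1) was fitted over all genes with limma 3.58.1 (lmFit, eBayes with trend) in R 4.3.3, and called at an FDR of 0.1 (Benjamini-Hochberg). TE was fitted per lysate, and the 5′ UTR ratio over genes with 20 reads in 9 of 11 RPF-seq libraries. The contrast of both Denr shRNAs came from a fit of 4 group means. Fits of RNA, footprints and TE for knockdown against control were also run on simulated data. These had independent lysates, the same added spread for all genes and only decreases in footprints. The 5′ UTR ratio and the contrast of both shRNAs were not scored on them. Gene names matched 10505 of 10516 identifiers, and uORFs and shared stretches were read from GENCODE vM21 transcripts. The polyamine genes and all lists were chosen with earlier results of these data known. Named beyond them were Denr, genes of the further list past the threshold and, per group of it, up to 2 more by RNA level. Alternatives were pseudocounts of 0.01 and 1, a minimum mean RPKM of 1, centring, the replicate block, left-out lysates, single shRNAs, scramble alone, voom on recovered reads, and, for the 5′ UTR ratio, division by 5′ UTR RNA and a 5′ UTR RPKM filter. p-values with 3 or fewer lysates a group rest on the pooled spread.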

Additional observations from a re-analysis of the deposited data

Results flagged for a closer look

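In 76 groups (6 knockdown or 5 control lysates of 1 gene and 1 measure), 5 lysates stood apart from the others by Dixon's criterion, which flags about 1 in 20 groups by chance. Srm RNA was 7.48 (log2 RPKM) in Denr shRNA1 replicate 1 against 6.79 to 7.04 in the other knockdown lysates, and its log2 TE there was 0.30 against 0.61 to 0.77. Srm RNA was also 7.14 in Gfp shRNA replicate 1, with 6.93 to 6.99 in the other controls. Azin1 log2 TE was -0.42 in that same Gfp lysate against -0.79 to -0.69. Sat1 log2 TE was -0.55 in scramble shRNA replicate 2 against -0.86 to -0.78.

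Both Denr shRNAs differed in CDS footprints of Srm (-0.22, log2 shRNA2 over shRNA1) and Sms (0.36) by the contrast of both shRNAs in limma. The cause was not tested.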

How the results depend on the processing

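Counts of called genes moved most. With the replicate block, 1003 genes passed for RNA, 1940 for CDS footprints and 2418 for the 5′ UTR ratio (373, 1053 and 939 without it), and 965 for RNA and 1812 for footprints between shRNAs (217 and 1019). Of the 10 polyamine genes 5 then passed for RNA in limma. Among them were Azin1 (-0.26, adjusted p = 0.0857), Amd1 (-0.43, adjusted p = 0.09) and Smox (0.42, adjusted p = 0.0367). For the 5′ UTR ratio 2 passed (Odc1 0.73, adjusted p = 0.0143, and Oaz1 0.51, adjusted p = 0.046), and 1 passed for RNA between shRNAs. Same-numbered lysates correlated over 0.1 in 10 of 15 pairs for RNA, 13 for footprints, 10 for TE and 11 for the ratio, and 7, 9, 9 and 9 of 11 lysates correlated best with their own number. The mean correlation was 0.326, 0.18, 0.226 and 0.21 for the same number and -0.163, -0.0894, -0.113 and -0.104 for different numbers. Group means were subtracted before correlating, which ties the mean for different numbers to that for the same number with the opposite sign. The contrast between both means therefore adds nothing to the same-number values. Those are a hint of pairing from the data. The labels name no shared day or batch and not every pair was over 0.1, the criterion set for pairing, so the block was kept as an alternative.

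With shRNA1 alone, 159 genes passed for RNA, 1 for TE and 5 for the ratio, with 1 polyamine gene for RNA and 0 for footprints. With shRNA2 alone 9 passed for the ratio, with 1 polyamine gene for RNA and 1 for footprints. Against scramble alone 940, 2651, 10 and 514 genes passed for RNA, footprints, TE and the ratio, with 4 polyamine genes for RNA and 1 for the ratio. Centring, which takes out the shift that the covered genes share, left 5 genes for the ratio. It left 1 polyamine gene for RNA and 1 between shRNAs for footprints. The ratio had 4 calls over 5′ UTR RNA, 131 with the RPKM filter and 1 polyamine gene at pseudocount 1.

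Signs turned for values near 0: RNA with shRNA2 alone (Srm -0.10, Sms 0.07), footprints with shRNA1 alone (Oaz1 0.035, Srm 0.07, Sms -0.14), with shRNA2 alone (Oaz2 0.018) and against scramble (Sms -0.0012), TE against scramble (Odc1 0.0019, Amd1 0.20) and with shRNA2 alone (Paox 0.036), and the ratio against scramble (Amd1 -0.045) and after centring (Azin1 -0.12, Amd1 -0.23, Srm -0.051, Sat1 -0.23). The cause was not tested.

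Leaving out 1 lysate gave 139 to 734 calls for RNA, 484 to 1946 for footprints, 14 to 72 for TE, 38 to 1773 for the ratio, and 61 to 245 and 560 to 680 between shRNAs for RNA and footprints. Polyamine genes called were 0 to 3, 2 to 4, 0 to 0 and 0 to 2, and 1 to 3 between shRNAs for footprints. Ranges were -0.025 to 0.12 (Oaz2) and -0.057 to 0.081 (Srm) for RNA, -0.088 to 0.085 (Oaz1), -0.082 to 0.087 (Oaz2) and -0.013 to 0.087 (Sms) for footprints, -0.054 to 0.022 (Odc1), -0.26 to 0.032 (Oaz1), -0.20 to 0.11 (Oaz2) and -0.31 to 0.06 (Amd1) for TE, and -0.23 to 0.33 (Amd1), -0.40 to 0.20 (Sms) and -0.068 to 0.20 (Sat1) for the ratio. Voom moved no count over all genes or over the 10 polyamine genes by over 1.5 times, while it called 3 of the 22 further genes for footprints, against 1. Reads on low genes (40 on Amd1, 92 on Smox) limit their precision.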

Other observations

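RNA on the Amd1 5′ UTR was 78.8 RPKM in scramble replicate 3 and 11.3 to 25.5 in the other 10 lysates, while CDS RNA there was 16.5 RPKM against 7.78 to 13.2. In the same lysate, the 5′ UTR footprints of Odc1 (54.2 RPKM), Sat1 (151), Smox (0.495) and Apip (2.18) were the lowest of the 11, and those of Sms (35.6) the highest.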
